A study of Mus musculus with 36 samples.

Results

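This account covers 60 mouse cytochrome P450 genes of families 1 to 4 in the liver, of 19664 genes measured. The members were all genes whose symbol begins with Cyp, a family number from 1 to 4, a letter and a digit, after 9 named genes were set aside (Cyp2b9, Cyp2b10, Cyp2b13, Cyp2a22, Cyp2c55, Cyp3a11, Cyp3a16, Cyp4a12a and Cyp4a12b). A member also needed an array row that named it alone and held values. Cyp4v3 was measured only on a row shared with another gene, and the row of Cyp2a5, shared with Cyp2a4, held no values, so neither is among the 60. The members fell into 20 subfamilies, the largest being Cyp2c with 12 genes, Cyp2d with 10, Cyp4f with 9, Cyp2j with 6, Cyp3a with 4 and Cyp4a with 3. No member had more than 1 row on the array, and all 60 were kept whatever their level. In 17 of them the mean log2 intensity was under 7, in the dimmer part of the array, where the probe signal limits what can be seen.

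P450s are haem proteins of the endoplasmic reticulum that insert an oxygen atom into their substrates with electrons passed on by P450 oxidoreductase. In the liver, families 1 to 3 mainly oxidise drugs, foreign chemicals and steroids, while family 4 mainly hydroxylates the far end of fatty acids and of lipid mediators such as leukotrienes. Many of these genes are under the control of ligand-activated receptors (AhR, CAR, PXR, PPARα), and in rodents several differ between the sexes through the pattern of growth hormone release.

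The study measured 1 array per mouse in 12 groups of 3 mice. LKO mice lacked Cyp51, the lanosterol demethylase of cholesterol synthesis and itself a P450 of a family outside this set, in the liver only, and LWT mice were their control littermates. All mice had the 129/Pas (10%) × C57BL/6J (90%) background, were put at 3 weeks of age, for 16 weeks, on LFnC (a standard chow, low in fat and without cholesterol), HFnC (high fat without cholesterol) or HFC (high fat with 1.25% cholesterol), and were killed after a 5 h fast. Females and males were studied on every diet, and replicate numbers 1 to 3 are the labels' batches. The chow and the high-fat diets came from different makers, so the fat comparison also compares diet formulas, and the labels name no Cre line for the liver deletion. Each value is the log2 intensity of 1 liver, a difference of 1 is a doubling, and a gene was called where limma's adjusted p (Benjamini-Hochberg over 19664 genes) was under 0.05.

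Cyp51 checked the genotype labels: its log2 intensity ran from 9.68 to 10.54 in 6 LWT and from 8.44 to 9.38 in 6 LKO livers on LFnC, from 10.54 to 11.49 against 8.63 to 9.82 on HFnC, and from 7.503 to 8.92 against 6.35 to 7.12 on HFC, without overlap on any diet. Array medians lay between 7.45 and 7.59. The tissue label fitted the 11 hepatocyte markers measured, led by Alb at 14.14 to 14.29, whose mean level stood above those of at least 99.4% of genes. Single livers stood apart. HFC male LWT replicate 1 and HFnC female LKO replicate 1 were each the lowest of the 36 livers for 12 members, and the next was HFnC male LWT replicate 2 with 5. HFC male LWT replicates 1 and 2 also had higher levels of duct and matrix markers than replicate 3, though replicate 2 was the lowest liver for no member. Leaving out those 2 arrays leaves replicate 3 alone in its group. For that setting changes are given, but no counts or p-values.

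Across the 36 livers, 25 members spanned less than 1 log2 unit and 14 spanned more than 2. Cyp2d26 had the narrowest range, from 13.44 to 13.74, followed by Cyp2e1, the ethanol-oxidising P450, from 13.61 to 14.02. Both lie close to the highest value in the table, 14.37, where intensities can be compressed, so a narrow range there does not show a constant level. The widest range belonged to Cyp2c54, from 7.90 to 12.95, followed by Cyp2c37, from 8.90 to 13.38, both close relatives within the Cyp2c cluster. The heat map of all members shows these wide rows against a mostly pale field, with LFnC LKO livers and a few single arrays standing out.

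**Figure D1:**
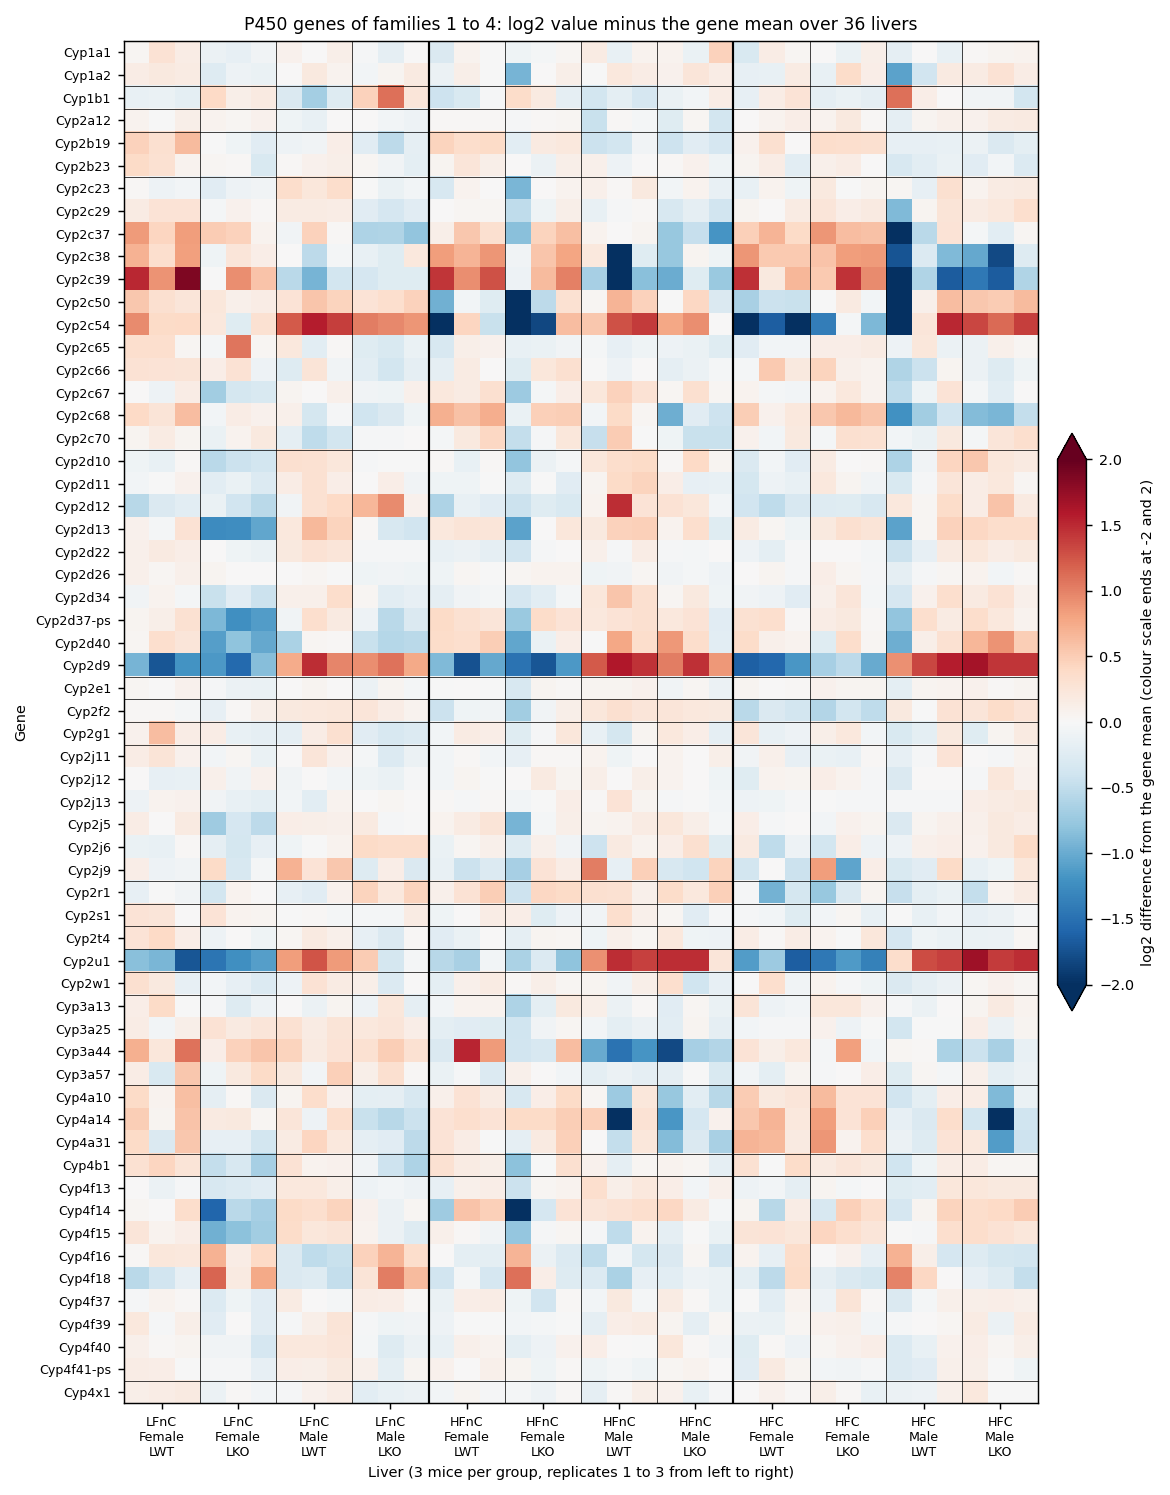
Log2 intensity of the 60 genes (rows, by subfamily) in the 36 livers (columns, 3 mice for each of 12 groups), as the difference from each gene's mean, red above and blue below. Cyp2d9 and Cyp2u1 alternate between the sexes on every diet, and the blue columns at HFnC female LKO replicate 1 and HFC male LWT replicate 1 are livers in which 12 members each had their lowest value.

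The first comparison asked how loss of Cyp51 changed these genes on chow. On LFnC, 22 of the 60 members were lower and 3 were higher in LKO than in LWT livers. The calls were 6 of 10 members lower in Cyp2d, 5 lower and 2 higher of 9 in Cyp4f, 2 of 3 lower in Cyp4a and 1 of 12 lower in Cyp2c, and differences between subfamilies were not tested. An uncalled member can have the larger value: Cyp2c37 was at -0.58 (adjusted p = 0.19), with 6 of 6 LKO livers below the LWT mean of their sex. The largest decreases were in Cyp2d13, Cyp2d37-ps and Cyp2d40, and the increases were in Cyp4f18, Cyp1b1 and Cyp4f16. Of all genes, 33.4% were called in this comparison, 19.3% lower and 14.2% higher, against 41.7% of the members, 36.7% lower and 5% higher. The median change of the members was -0.22 and that of all genes -0.07. With each array centred on its median, the medians moved to -0.29 and -0.13, and 31 members were called lower and 3 higher, beside 7756 and 2226 of all genes in place of 3788 and 2787. In 30 members all 6 LKO livers lay below the LWT mean of their own sex, and in 3 all 6 lay above it. The same count over all genes is not given here. The change was below 0 in 49 members and in 12445 of 19664 genes. Leaving out genes with a mean under 7 removed 17 of the 60 members. Of the members kept, 17 were called, 15 lower and 2 higher, beside 4711 of all genes kept, whose number is not given here.

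Cyp2d13, Cyp2d37-ps and Cyp2d40 lie next to each other in the Cyp2d cluster on chromosome 15 among the members, in the gene order of the RefSeq annotation of GRCm38.p6. Cyp2d37-ps is annotated as a pseudogene, and probes may share signal between near-identical paralogs, so the values of these 3 genes may not be separate measurements. For Cyp2d13, LFnC females had 11.64, 11.52 and 11.85 in LWT and 10.30, 10.31 and 10.52 in LKO, and LFnC males had 11.77, 12.20 and 11.99 against 11.58, 11.23 and 11.18. Every female LKO liver was thus more than a log2 unit below every female LWT liver, and the male groups were also apart. Over both sexes the change was -0.98 (SE 0.183, a 1.97-fold decrease, limma adjusted p = 0.00032), and it was -0.76, -1.09 and -1.08 within batches 1, 2 and 3. Cyp2d37-ps had 11.57, 11.63 and 11.82 in LWT and 10.61, 10.28 and 10.39 in LKO females, and 11.44, 11.85 and 11.69 against 11.41, 10.97 and 11.22 in males. All 6 LKO livers were below all 6 LWT livers, by -0.85 on average (SE 0.158, adjusted p = 0.0003). Cyp2d40 had 9.46, 9.75 and 9.67 in LWT and 8.31, 8.61 and 8.39 in LKO females. In males it had 8.79, 9.47 and 9.44 against 8.97, 8.84 and 8.88, so that the male groups overlapped. With both sexes the difference came to -0.76 (SE 0.201, adjusted p = 0.0062).

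The other called Cyp2d genes moved less: Cyp2d10 by -0.33, Cyp2d34 by -0.32 and Cyp2d22 by -0.24. Cyp2d9, a male-predominant testosterone hydroxylase, differed by -0.03 (SE 0.167, adjusted p = 0.9), and Cyp2d26 by -0.08 (adjusted p = 0.12). The call of Cyp2d10 was lost when any of 8 arrays was left out. Decreases within the subfamily therefore ranged widely, and 4 of its 10 members were not called.

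The Cyp4 genes split by direction. Cyp4f15, of a family of fatty acid and leukotriene omega-hydroxylases, had 12.26, 12.08 and 12.14 in LWT and 11.05, 11.20 and 11.32 in LKO females, and 12.38, 12.25 and 12.27 against 12.08, 11.90 and 11.76 in males. No LKO liver reached the lowest LWT liver, and the change was -0.68 (SE 0.105, 1.60-fold, adjusted p = 5.3e-05). Its neighbour Cyp4f14, a leukotriene and fatty acid omega-hydroxylase, was at -0.72 (SE 0.264, adjusted p = 0.037). Its lowest liver was LFnC female LKO replicate 1 at 10.29, without which the change was -0.56 (adjusted p = 0.11). That call was lost when any of 8 single arrays was left out. Cyp4b1, a fatty acid and xenobiotic hydroxylase best known from the lung, ran from 10.22 to 10.58 in LWT and from 9.49 to 10.08 in LKO, without overlap, a change of -0.67 (SE 0.127, adjusted p = 0.00036).

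Of the Cyp4a genes, classic targets of PPARα, Cyp4a31 changed by -0.51 and Cyp4a10 by -0.45 (adjusted p = 0.035 and 0.032). Cyp4a10 ran from 12.84 to 13.39 in LWT and from 12.46 to 12.81 in LKO, so its groups did not overlap. Cyp4a14 differed by -0.43 with a larger error (SE 0.307, adjusted p = 0.26), with all 6 LKO livers below the LWT mean of their sex. Fitted on the compared arrays alone, it was called at the same change (adjusted p = 0.0065). Each of the calls of Cyp4a31 and Cyp4a10 was lost when any of 7 single arrays was left out.

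Cyp4f18, a leukotriene hydroxylase of neutrophils, went the other way. Its values were 6.75, 6.91 and 7.12 in LWT and 8.46, 7.47 and 8.05 in LKO females, and 7.00, 7.03 and 6.81 against 7.56, 8.32 and 7.92 in males. All 6 LKO livers were above all 6 LWT livers, by 1.03 (SE 0.192, 2.04-fold, adjusted p = 0.00032). Cyp1b1, an oestrogen hydroxylase found mainly in mesenchymal cells and induced through AhR, had 6.78, 6.79 and 6.73 against 7.32, 7.05 and 7.10 in females, and 6.64, 6.25 and 6.67 against 7.38, 8.03 and 7.17 in males. These groups were again apart, by 0.70 (SE 0.146, 1.62-fold, adjusted p = 0.0009). Cyp4f16 rose by 0.59 (SE 0.146, adjusted p = 0.004), with 7.56 to 8.28 in LWT and 8.21 to 8.75 in LKO, which overlapped.

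In the remaining subfamilies the called changes were small. Among them Cyp2b19, Cyp2g1 and Cyp2t4 were dim, with mean log2 intensities of 6.3, 6.3 and 5.7. Cyp2b19, an epoxygenase known from keratinocytes, changed by -0.44, Cyp2g1, known from olfactory tissue, by -0.35, Cyp2j5, an arachidonic acid epoxygenase, by -0.35, Cyp2c29, an abundant hepatic epoxygenase, by -0.32, and Cyp2t4 by -0.29. Cyp2c29 ran from 13.45 to 13.58 in LWT and from 12.97 to 13.39 in LKO livers, without overlap, although its call was lost when any of 7 arrays was left out. Several well-known hepatic P450s were not called: Cyp1a2, which oxidises caffeine, by -0.18 (adjusted p = 0.33), Cyp2e1 by -0.10 (0.15), Cyp2f2, which activates naphthalene, by -0.03 (0.79), Cyp3a13 by -0.15 (0.23) and Cyp3a25 by 0.06 (0.5, turning to -0.004 with centred arrays). Cyp1a2 was called with the compared arrays alone (adjusted p = 0.034), and Cyp2e1 with centred arrays, at -0.16 (adjusted p = 0.034). Cyp1a1, the classic AhR target, was at -0.21 with an adjusted p of 0.0533, and all 6 of its LKO livers were below all LWT livers. It was called with the replicate block (adjusted p = 0.044), with centred arrays (0.01) and with the compared arrays alone (0.019). Its mean log2 intensity was 6.18, in the dim part of the array. Cyp2r1, a vitamin D hydroxylase, was at 0.23 (0.23).

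Groups without overlap between 6 LKO and 6 LWT livers were found for 9 members in the lower direction (4.32% of all genes) and 2 in the higher direction (6.24% of all genes). The 9 were Cyp1a1, Cyp2c29, Cyp2d22, Cyp2d37-ps, Cyp2t4, Cyp4a10, Cyp4b1, Cyp4f15 and Cyp4f40. The 2 were Cyp1b1 and Cyp4f18. Of all these, Cyp1a1, Cyp2t4, Cyp4f40 and Cyp1b1 were dim, with a mean under 7.

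**Figure D2:**
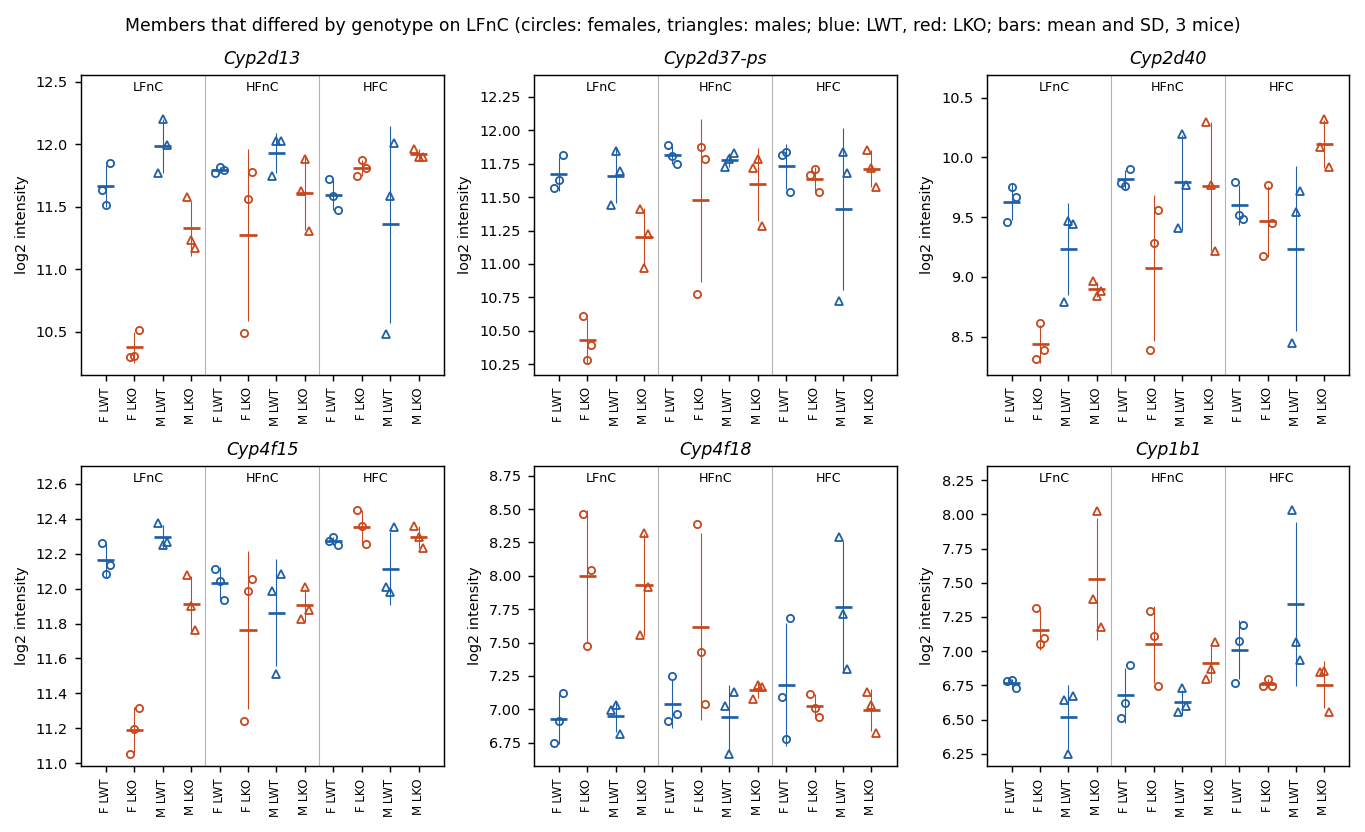
Log2 intensity in every liver for 6 members with large genotype changes on LFnC, by diet, sex (F, M) and genotype; points are mice, bars the mean and SD of 3 mice. The LFnC female LKO livers are the lowest group for Cyp2d13, Cyp2d37-ps, Cyp2d40 and Cyp4f15, and for Cyp2d13, Cyp2d37-ps and Cyp2d40 HFnC female LKO replicate 1 and HFC male LWT replicate 1 lie below the other livers of their groups.

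Genes that act on P450s were read from a fixed list of 19 receptors and factors, of which 17 were measured. On LFnC 8 were lower and 1 higher. Rxra, with the smallest p of the list, changed by -0.34 (SE 0.0609, limma adjusted p = 2e-04). Ppara changed by -0.61 (SE 0.123, adjusted p = 6e-04) and Nr1i3 (CAR) by -0.93 (SE 0.274, adjusted p = 0.012). Foxa3 at -0.53 and Nr1i2 (PXR) at -0.35 were also lower (adjusted p = 0.036 and 0.025). Nfe2l2, the oxidative stress factor, rose by 0.25 (adjusted p = 0.021). Of 14 measured genes that supply P450s with electrons or haem, 3 enzymes of haem synthesis were lower: Cpox by -0.81, Urod by -0.26 and Fech by -0.23. Of 17 measured P450s of higher families 3 were lower, Cyp51 itself by -1.21, Cyp8b1 by -1.07 and Cyp7b1 by -0.89, the latter a pair of bile acid synthesis enzymes, and Cyp20a1 was higher by 0.42. Among the 9 P450s that the rule set aside, Cyp3a16 at -2.43, Cyp2b10 at -2.15 and Cyp2b13 at -1.27 were lower, and Cyp2c55 at 1.87 and Cyp4a12b at 0.56 were higher.

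Markers of other cells moved with the genotype on LFnC. Of 8 duct markers measured 7 were higher, of 16 matrix and stellate genes 12, and of 15 macrophage markers 8 were higher and 2 lower. The duct level (mean log2 difference from each gene's average) ran from -0.62 to -0.02 in LWT and from 0.65 to 1.38 in LKO, and the matrix level from -0.36 to -0.19 against 0.29 to 0.71. The 11 hepatocyte markers had a median change of -0.005, with 1 called in each direction. In whole liver, fewer cells of a type and less RNA per cell cannot be told apart, and the part of these markers in the P450 changes was not tested.

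By sex on LFnC, 10 members were called between LKO and LWT females (16.7% of members, 12.8% of all genes, of which 7.53% higher and 5.25% lower) and 5 between males (8.33% of members, 14.2% of all genes, of which 7.54% higher and 6.64% lower). With centred arrays, 1 member was higher and 15 were lower in females, and 3 higher and 14 lower in males. All genes then went from 1480 higher and 1032 lower to 1217 and 1987 in females, and from 1482 and 1305 to 1399 and 4175 in males, so the split between directions depends on the scaling. In females the decreases were -1.29 for Cyp2d13, -1.24 for Cyp2d37-ps, -1.19 for Cyp2d40, -0.97 for Cyp4f15, -0.82 for Cyp4b1 and -0.63 for Cyp2j5, and Cyp4f18 rose by 1.07. The call of Cyp4f18 in females and that of Cyp2j5 were lost without LFnC female LKO replicate 1. In males Cyp1b1 rose by 1.01, Cyp4f18 by 0.99 and Cyp4f16 by 0.91, while Cyp2u1, a fatty acid hydroxylase, fell by 0.94 and Cyp4f40 by 0.35. Leaving out LFnC male LKO replicate 2 ended the calls of Cyp4f18 (0.79), Cyp2u1 (-0.75) and Cyp4f40 (-0.29) in males.

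These lists do not show that the sexes differed. The test of the difference called none of the 60 members and none of 19664 genes (0% of all genes) by limma. Beside 1684 of all genes, 9 members had an unadjusted p under 0.05 by the same test. The lowest of these p-values belonged to Cyp4f15, whose change was 0.59 lower in females (-0.59, SE 0.209, adjusted p = 0.38), and to Cyp2j5 (-0.56, SE 0.216, adjusted p = 0.42). Cyp2d37-ps was at -0.79 (SE 0.316, adjusted p = 0.44). Across the 60 members the changes in females and males, which come from separate mice, correlated at r = 0.53, and 43 had the same sign. This is a correlation across genes, which are not independent replicates, and over all genes it was 0.61.

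**Figure D3:**
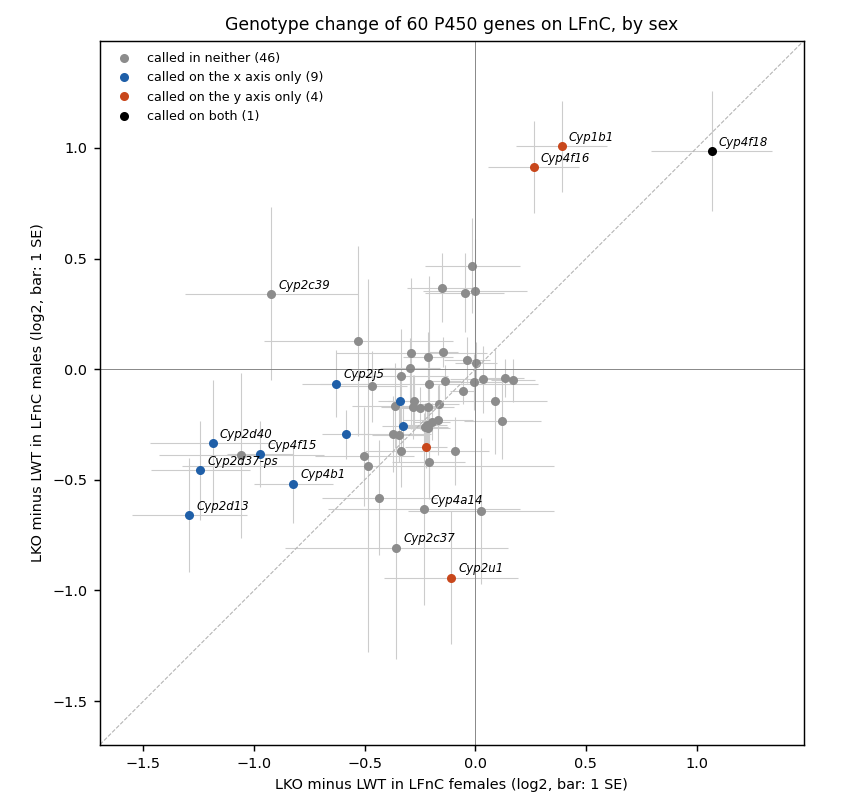
Change from LWT to LKO on LFnC in females (x axis) and males (y axis) for the 60 genes, in log2 units with 1 SE (3 mice per group); colours give the calls and the dashed line is equality. Cyp2d13, Cyp2d37-ps and Cyp2d40 lie furthest left, Cyp1b1 and Cyp4f16 higher in males, and Cyp4f18 near the line at 1.07 and 0.99.

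The next comparisons asked whether the genotype changes held on the high-fat diets. On HFnC no member was called (0.0203% of all genes, 0.0153% higher and 0.00509% lower). By limma 9 members had an unadjusted p under 0.05, beside 2355 of 19664 genes. Cyp2d13 was at -0.42 (SE 0.183, adjusted p = 0.36), Cyp2d40 at -0.39, Cyp1b1 at 0.33 and Cyp4f18 at 0.39 (SE 0.192, adjusted p = 0.42). The HFnC female LKO livers were uneven: replicate 1 had 10.49 for Cyp2d13, 10.77 for Cyp2d37-ps and 9.83 for Cyp4f14, whereas replicates 2 and 3 had 11.56 and 11.78, 11.87 and 11.78, and 11.54 and 12.15. Replicate 1 was also the highest of its group for Cyp4f18, at 8.39 against 7.43 and 7.04. Its duct level was 1.32, against 0.05 and -0.39 in the other replicates. The part of that level in these values was not tested.

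On HFC, too, no member was called (1% of all genes, 0.0814% higher and 0.92% lower). By limma 16 members had an unadjusted p under 0.05, beside 2979 of 19664 genes. Of the 60 differences 8 were below 0, as were 8460 of those of all genes. Cyp2d22 was at 0.21, Cyp2d9 at 0.48 (SE 0.167, adjusted p = 0.16), Cyp1b1 at -0.42 and Cyp4f18 at -0.47 (SE 0.192, adjusted p = 0.24). The HFC male LWT livers were spread widely. For Cyp2d13 they had 10.48, 11.59 and 12.01, for Cyp2c37 8.90, 11.96 and 12.77, for Cyp2c54 8.52, 11.62 and 12.88, and for Cyp4f18 8.29, 7.71 and 7.30. Replicate 1 was the extreme liver each time and replicate 2 came between, and their duct levels were 0.90 and 0.21 against -0.69 in replicate 3. Without replicate 3 the count of members called was 14, and the count over all genes for that fit is not given here.

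The change of the genotype difference from LFnC to HFC was called for 24 members, 21 of them upward and 3 downward (31.3% of all genes, 16.7% upward and 14.6% downward, against 40% of members). These are largely differences that were negative on LFnC and near or above 0 on HFC. Cyp2d13 went from -0.98 to 0.39, a difference of 1.36 (SE 0.259, adjusted p = 0.00034), Cyp2d40 from -0.76 to 0.37, a difference of 1.13 (SE 0.284, adjusted p = 0.0042), and Cyp4f15 from -0.68 to 0.13, a difference of 0.81 (SE 0.148, adjusted p = 0.00023). Cyp4f18 went from 1.03 to -0.47, a difference of -1.49 (SE 0.272, adjusted p = 0.00023), and Cyp1b1 from 0.70 to -0.42, a difference of -1.12 (SE 0.206, adjusted p = 0.00025). With centred arrays 37 members were called upward and 3 downward, where all genes moved from 3289 upward and 2870 downward to 8402 and 2243. Leaving out the 2 uneven HFC male LWT arrays leaves replicate 3 alone in that group. The difference for Cyp4f14 then moved from 1.05 to 0.85.

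The difference between HFnC and HFC in the genotype change was called for 5 members (8.33% of members, 5.78% of all genes, 1.2% upward and 4.58% downward): Cyp2c68 by 0.69, Cyp2d10 by 0.56, Cyp2d11 by 0.44, Cyp2d34 by 0.41 and Cyp1b1 by -0.75. With centred arrays 14 members were called upward and 1 downward, and all genes turned from 236 upward and 900 downward to 1551 and 734. With the compared arrays alone Cyp1b1 was the member called. Each of the 5 calls was also ended by leaving out single arrays of the 24. Any of 9 arrays ended that of Cyp2c68, 19 that of Cyp2d10, 1 that of Cyp2d11, 18 that of Cyp2d34 and 6 that of Cyp1b1. Leaving out the 2 uneven HFC male LWT arrays leaves replicate 3 alone in that group. The 5 differences, in the order above, then stood at 0.51, 0.3, 0.31, 0.25 and -0.54. The difference between LFnC and HFnC was called for no member (0% of all genes). With all arrays, 14 members had an unadjusted p under 0.05 by limma, beside 4270 of 19664 genes. Without HFnC female LKO replicate 1, 5 members were called, and the count over all genes for that fit is not given here. Over all diets 3 members were called, all lower in LKO (2.64% of all genes, 2.06% higher and 0.585% lower): Cyp2d37-ps by -0.34, Cyp4f15 by -0.22 and Cyp2b19 by -0.18, calls that 26, 26 and 5 of the 36 arrays ended when left out singly. With the replicate block Cyp4f15 had an adjusted p of 0.0527.

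The comparison of the sexes asked which of these genes differed between females and males in each genotype, over the 3 diets. In LWT livers 12 members were called, 20% of the members against 6.4% of all genes (3.04% higher in females and 3.37% lower). Cyp2d9, Cyp2u1, Cyp2c54, Cyp2d12, Cyp2f2, Cyp2d34 and Cyp2d11 were higher in males, and Cyp2c39, Cyp2c38, Cyp3a44, Cyp2c68 and Cyp2b19 were higher in females. Without the 2 uneven HFC male LWT arrays, uncalled differences changed sign in Cyp1a2, Cyp1b1, Cyp2c29 and Cyp2e1. With the compared arrays alone Cyp2d34 and Cyp2d11 were not called (adjusted p = 0.055 and 0.073), and any of 7 arrays left out ended the call of Cyp2d11.

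Cyp2d9 ran from 9.25 to 10.11 (median 9.80) in 9 female LWT livers and from 11.74 to 12.59 (median 12.34) in 9 male ones, without overlap. The difference, female minus male, was -2.57 (SE 0.136, 5.95-fold higher in males, adjusted p = 4.5e-14), and within batches it was -2.11, -3.15 and -2.46. Cyp2u1 ran from 7.97 to 9.63 (median 8.84) in females and from 10.03 to 11.16 (median 10.94) in males, a difference of -1.99 (SE 0.174, 3.97-fold, adjusted p = 3.9e-09). Cyp2d12, at a low signal, differed by -0.70 (SE 0.135, adjusted p = 0.0013), again without overlap. Cyp2f2 differed by -0.41 (SE 0.0735, adjusted p = 0.00057), with 13.00 to 13.56 in females and 13.53 to 13.86 in males.

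Cyp2c39, a retinoic acid hydroxylase, ran from 9.47 to 11.14 (median 10.54) in LWT females and from 7.21 to 8.91 (median 8.44) in males. No male reached the lowest female, and the difference was 2.22 (SE 0.226, 4.65-fold higher in females, adjusted p = 6.7e-08). Cyp2c38, an arachidonic acid epoxygenase, ran from 12.03 to 12.57 in females and from 9.26 to 11.91 in males, a difference of 1.35 (SE 0.248, 2.54-fold, adjusted p = 0.00076). Its lowest value was HFnC male LWT replicate 2, without which it was 1.08. Cyp2c68 differed by 0.70 (SE 0.111, adjusted p = 0.00013) and Cyp3a44, a female-predominant Cyp3a gene, by 0.89 (SE 0.197, adjusted p = 0.0045).

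Cyp2c54 was the least even of the called genes. On LFnC its values were 12.32, 11.75 and 11.77 in LWT females and 12.61, 12.95 and 12.76 in males. On HFnC the LWT females had 7.94, 11.80 and 10.93, and on HFC 8.79, 9.73 and 9.34, whereas the males had 11.92, 12.65 and 12.78 and then 8.52, 11.62 and 12.88. The female livers on the high-fat diets thus held most of the low values, and the low HFC male was replicate 1. The difference over the diets was -1.59 (SE 0.486, adjusted p = 0.0459), and leaving out any of 13 single arrays ended the call, as did eBayes with trend and robust settings (adjusted p = 0.071) and the compared arrays alone (0.1).

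**Figure D4:**
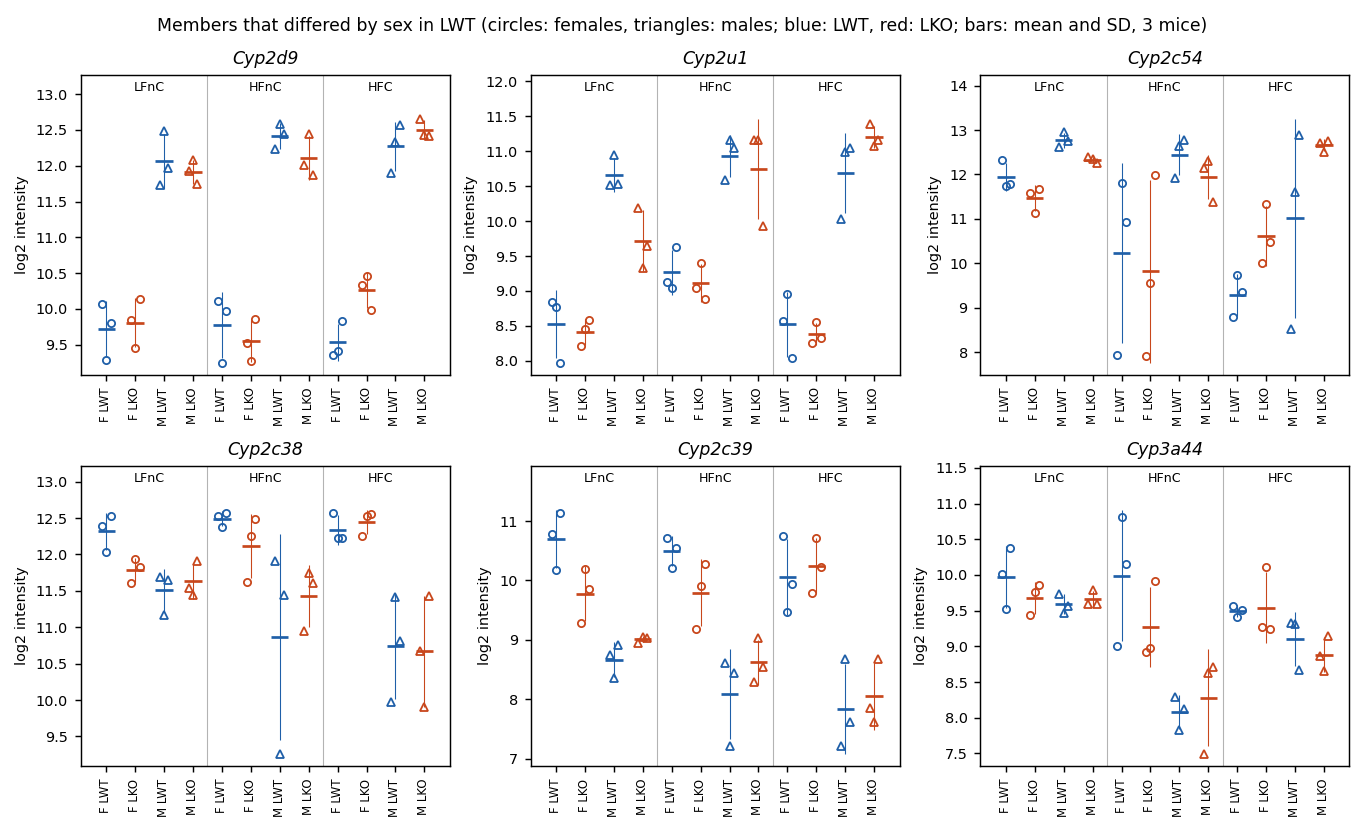
Log2 intensity in every liver for 6 members that differed by sex in LWT livers, by diet, sex (F, M) and genotype; points are mice, bars the mean and SD of 3 mice. Cyp2d9 is higher in males in every diet and genotype, Cyp2c39 is higher in females, and Cyp2c54 is spread widely in females on HFnC and HFC.

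In LKO livers 17 members were called, 28.3% of the members against 5.52% of all genes, 8 higher in females and 9 in males (2.53% of all genes higher in females and 2.99% lower). Cyp2d9 ran from 9.28 to 10.47 in females and from 11.75 to 12.66 in males, a difference of -2.30 (SE 0.136, 4.92-fold, adjusted p = 7.3e-13), and Cyp2u1 differed by -1.92 (SE 0.174, adjusted p = 9.8e-09), with ranges of 8.21 to 9.41 and 9.33 to 11.38 that overlapped. Cyp2c39 was at 1.38 (SE 0.226, 2.60-fold, adjusted p = 2e-04) and Cyp2c38 at 0.87, the latter lost when any of 11 arrays was left out. All 3 Cyp4a genes were called higher in LKO females: Cyp4a14 by 0.99 (SE 0.251, adjusted p = 0.015), Cyp4a31 by 0.57 and Cyp4a10 by 0.45. In LWT the same genes were at 0.49 (adjusted p = 0.3), 0.23 and 0.33, not called. Without HFC male LKO replicate 2, whose Cyp4a14 was 10.92, the values for Cyp4a14 and Cyp4a31 were 0.80 and 0.46, the second no longer called. The call of Cyp4a10 was ended by leaving out any of 10 arrays, by centred arrays (adjusted p = 0.063) and by the compared arrays alone (0.058). Cyp2d40 was lower in LKO females than males, by -0.59 (SE 0.164, adjusted p = 0.027), a call that any of 6 arrays left out ended. In LWT it was at 0.26 (adjusted p = 0.45).

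No member was called for a difference between the genotypes in the sex effect (0.0712% of all genes, 0.0254% upward and 0.0458% downward). Beside 1879 of 19664 genes, 7 members had an unadjusted p under 0.05 by limma. The lowest was that of Cyp2d40, whose sex difference was -0.86 in LKO relative to LWT (SE 0.232, adjusted p = 0.2), followed by Cyp2j5 at -0.41 (adjusted p = 0.25). Cyp2c39 was at -0.84 (SE 0.319, adjusted p = 0.36). The sex differences in LWT and LKO mice, which share no mouse, correlated across the 60 members at r = 0.92 (Pearson), with 44 of the same sign. The Pearson value over all genes was 0.72. By ranks (Spearman) the members correlated at 0.73.

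Groups without overlap between 9 females and 9 males were found in LWT for Cyp2d9, Cyp2d12 and Cyp2u1 (higher in males, 0.371% of all genes) and for Cyp2c38 and Cyp2c39 (higher in females, 0.32% of all genes). In LKO they were found for Cyp2d9 and Cyp2d12 (0.361% of all genes) and Cyp2c39 (0.224% of all genes).

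**Figure D5:**
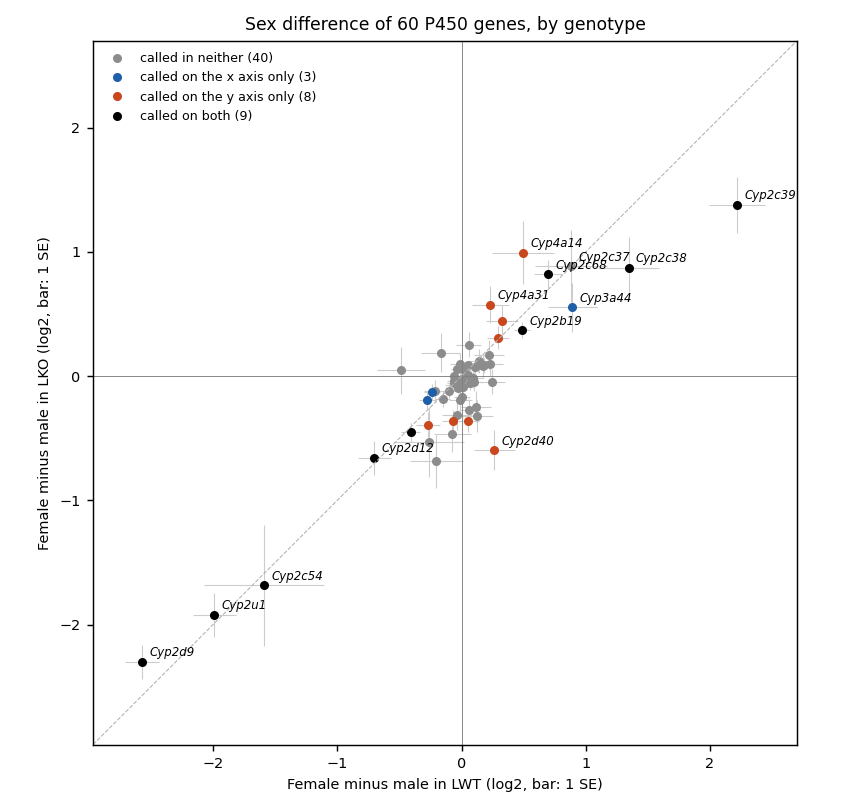
Female minus male difference in LWT (x axis) and LKO livers (y axis) for the 60 genes, in log2 units with 1 SE (9 mice per sex and genotype); colours give the calls and the dashed line is equality. Most genes lie near 0 on both axes, Cyp2d9, Cyp2u1 and Cyp2c54 lie at the lower left and Cyp2c39 at the upper right, at 2.22 and 1.38.

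Among 13 measured regulators of sex-dependent liver genes, Cux2, a female-predominant repressor, was higher in females by 2.13 in LWT and 1.49 in LKO, and Trim24 by 1.27 and 0.96. Esr1, the oestrogen receptor, was higher by 0.94 and 0.58, and Tox by 1.04 and 0.83. On LFnC these 4 and Ghr were lower in LKO, with Cux2 at -0.87 and Esr1 at -0.59. Of 12 pancreatic acinar genes 6 were higher in LWT females and none in LKO. Their level, a mean like the duct level, was above 0 in 6 of 9 LWT females, from 1.83 to 4.70, and in 1 of 9 LWT males, at 2.19. The part of these genes in the sex differences was not tested.

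Promoters are shown for comparison of 3 Cyp2d genes that differed in their sex pattern and of 3 Cyp2c genes all higher in LWT females. Cyp2c54, which was lower in LWT females, is not among them. RefSeq promoters of the GRCm38.p6 build, from 250 bases before to 50 after a gene's start, were found for 46 of the 60 members. The 3 Cyp2d genes lie in a cluster on chromosome 15 and had sex differences in LWT of -2.57 (Cyp2d9), -0.27 (Cyp2d10, adjusted p = 0.11) and 0.26 (Cyp2d40), and the Cyp2c genes lie on chromosome 19. Capitals mark 5 motifs searched on both strands: the TATA box TATAAA, the STAT5 site TTCNNNGAA, the HNF6 site ATTGATT, the FOXA site TGTTTAC and the HNF4A site CAAAGTCCA.
Cyp2d9, chr15:82452127-82452426, plus strand: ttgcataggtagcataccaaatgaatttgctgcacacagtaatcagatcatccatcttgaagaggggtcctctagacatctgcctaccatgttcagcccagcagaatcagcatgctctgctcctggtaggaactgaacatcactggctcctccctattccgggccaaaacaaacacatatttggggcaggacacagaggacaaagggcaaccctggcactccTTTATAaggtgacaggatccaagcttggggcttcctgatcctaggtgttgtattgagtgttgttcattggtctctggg
Cyp2d10, chr15:82407145-82407444, minus strand: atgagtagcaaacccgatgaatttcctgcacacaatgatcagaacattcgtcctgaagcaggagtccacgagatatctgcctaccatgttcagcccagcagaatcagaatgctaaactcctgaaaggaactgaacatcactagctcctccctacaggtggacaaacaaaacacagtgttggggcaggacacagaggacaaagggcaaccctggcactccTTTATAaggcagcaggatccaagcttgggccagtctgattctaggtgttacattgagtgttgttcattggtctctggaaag
Cyp2d40, chr15:82764073-82764372, minus strand: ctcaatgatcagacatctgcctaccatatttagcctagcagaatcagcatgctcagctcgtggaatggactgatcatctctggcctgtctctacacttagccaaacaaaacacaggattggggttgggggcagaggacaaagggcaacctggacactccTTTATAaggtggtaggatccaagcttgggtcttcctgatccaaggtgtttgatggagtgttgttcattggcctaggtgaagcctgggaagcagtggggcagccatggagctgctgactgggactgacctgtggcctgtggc
Cyp2c38, chr19:39463026-39463325, minus strand: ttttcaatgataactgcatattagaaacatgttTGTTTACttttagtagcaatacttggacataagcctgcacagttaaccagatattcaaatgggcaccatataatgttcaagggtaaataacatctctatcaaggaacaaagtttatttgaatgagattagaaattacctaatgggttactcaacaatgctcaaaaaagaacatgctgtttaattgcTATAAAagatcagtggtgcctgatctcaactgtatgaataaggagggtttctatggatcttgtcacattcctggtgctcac
Cyp2c39, chr19:39347096-39347395, plus strand: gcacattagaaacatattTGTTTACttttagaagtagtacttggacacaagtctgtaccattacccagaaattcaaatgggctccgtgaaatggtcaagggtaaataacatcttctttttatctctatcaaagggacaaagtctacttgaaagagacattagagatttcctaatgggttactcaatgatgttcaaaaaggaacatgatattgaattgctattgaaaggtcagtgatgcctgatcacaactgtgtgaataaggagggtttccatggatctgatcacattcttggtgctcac
Cyp2c39, chr19:39510572-39510871, plus strand: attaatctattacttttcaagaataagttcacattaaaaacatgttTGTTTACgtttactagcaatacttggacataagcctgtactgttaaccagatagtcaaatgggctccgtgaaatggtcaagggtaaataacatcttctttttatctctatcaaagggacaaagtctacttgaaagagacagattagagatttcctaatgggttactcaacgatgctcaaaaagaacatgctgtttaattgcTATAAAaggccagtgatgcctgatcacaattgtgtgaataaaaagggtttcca
Cyp2c68, chr19:39741052-39741351, minus strand: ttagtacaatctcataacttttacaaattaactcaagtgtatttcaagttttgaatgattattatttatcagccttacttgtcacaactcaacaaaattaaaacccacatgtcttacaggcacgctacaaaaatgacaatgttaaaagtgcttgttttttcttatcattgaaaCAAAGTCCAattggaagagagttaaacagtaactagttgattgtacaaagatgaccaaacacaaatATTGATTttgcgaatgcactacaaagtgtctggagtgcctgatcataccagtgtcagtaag

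The promoter of Cyp2d9 was identical to that of Cyp2d10 at 252 of 300 bases (84%) and to that of Cyp2d40 at 194 (64.7%). Each of the 3 held the TATAAA letters on the reverse strand and none of the other motifs. The letters lay 28 (Cyp2d9), 31 (Cyp2d10) and 91 (Cyp2d40) bases before the listed start. The Cyp2c38 promoter was identical to the 2 listed Cyp2c39 promoters at 246 and 239 bases (82% and 79.7%). These 3 each held the FOXA letters, and the Cyp2c38 and second Cyp2c39 promoter also held TATAAA, 31 and 3 bases before the listed start. Cyp2c68 matched Cyp2c38 at 174 bases (58%) and held the HNF6 and HNF4A letters. So the close pair Cyp2d9 and Cyp2d10 differed in their sex difference by more than a log2 unit, and the close pair Cyp2c38 and Cyp2c39 were both higher in females. Of the 53 promoters of these 46 members, TATAAA was found in 18 (34%), against 13.6% of all 32851 promoters in the table. TTCNNNGAA was found in 4 (7.55% against 8.3%), ATTGATT in 7 (13.2% against 2.86%), TGTTTAC in 5 (9.43% against 3.65%) and CAAAGTCCA in 4 (7.55% against 0.475%). All CAAAGTCCA matches were in Cyp2c genes (Cyp2c65, Cyp2c67, Cyp2c68 and Cyp2c70). The TGTTTAC count holds both Cyp2c39 promoters and the similar Cyp2c38 one, so related promoters are counted separately. The matches are of letters within a short window, not tested binding sites.

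The diet comparisons asked whether fat or cholesterol changed the members within a genotype. From LFnC to HFnC 1 member was called in LWT (0.188% of all genes, 0.0966% higher and 0.0915% lower), Cyp3a25, at -0.33 (SE 0.0689, adjusted p = 0.039). Leaving out any of 10 arrays ended this call, as did centred arrays (-0.29, adjusted p = 0.084). Its LWT values ran from 13.14 to 13.51 on LFnC and from 12.96 to 13.15 on HFnC. In LKO 6 members were called (10% against 5.04% of all genes, 1.8% higher and 3.24% lower). Cyp2u1 rose by 0.86, Cyp2d40 by 0.75 and Cyp2d37-ps by 0.72, and Cyp3a44 fell by 0.90, Cyp4f16 by 0.51 and Cyp3a25 by 0.34 (SE 0.0689, adjusted p = 0.0055). Cyp3a44 in LWT was at -0.75 (adjusted p = 0.16). Only Cyp3a25 among the 6 kept its call when any single array was left out. Without HFnC female LKO replicate 1 there were 13 members called, and the count over all genes for that fit is not given here. With the compared arrays alone none of the 6 was called, Cyp3a25 having an adjusted p of 0.078.

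From HFnC to HFC 3 members were called in LWT (4.67% of all genes, 3.5% higher and 1.16% lower): Cyp2c68 by -0.65, Cyp2r1 by -0.62 and Cyp1b1 by 0.53. Without the uneven HFC male LWT arrays, which leaves replicate 3 alone in that group, the 3 changes were -0.46, -0.56 and 0.32. Any of 7 arrays left out singly ended the call of Cyp1b1, and any of 3 that of Cyp2r1. With the compared arrays alone neither was called by limma (adjusted p = 0.16 for Cyp1b1 and 0.0502 for Cyp2r1). Cyp2c68 kept its call in both checks. For Cyp2r1 the HFC LWT livers had 9.84, 8.92 and 9.52 in females and 9.41, 9.68 and 9.74 in males, against 9.97 to 10.36 in the 6 HFnC LWT livers. They all lay below, and the lowest was HFC female LWT replicate 2. In LKO 1 member was called (1.01% of all genes, 0.336% higher and 0.671% lower), Cyp4f15, which rose by 0.49 (SE 0.105, adjusted p = 0.013), to between 12.23 and 12.45 on HFC from 11.24 to 12.06 on HFnC. The lowest HFnC value was female replicate 1, without which the rise was 0.36 (adjusted p = 0.036). With the compared arrays alone its adjusted p was 0.099. With the replicate block 2 members were called, Cyp2c29 being the other (adjusted p = 0.037, against 0.0546 without it).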

How the data were processed

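Liver RNA of 36 mice was hybridised to 1 Affymetrix array each. The authors deposited log2 intensities summarised by RMA, per the submitters' processing notes without a version. The value table had 35556 rows, 9856 of which held no values; of the remaining 25700, 20781 came with 1 gene symbol, 235 with several and 4684 unlisted in the platform annotation. Where a gene had several rows the one with the highest mean was used, giving 19664 genes, 19587 of them matched to RefSeq by gene number. Group means of the 12 groups were fitted with limma 3.58.1 in R 4.3.3 (lmFit, eBayes), with 17 contrasts and Benjamini-Hochberg adjustment over all genes at 0.05. The procedure was tested on simulated data. P-values measure the spread between mice.

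Per comparison the text names the called members with the largest changes, up to 12 in each direction for genotype on LFnC and sex in LWT and up to 6 otherwise. It adds a fixed set of well-known members and up to 4 called genes of the other lists it gives. Lists of acute phase and periportal genes were also tested and are not given here. Other members and listed genes named for their values were chosen after these were seen. The members and lists were chosen with earlier results of these data known.

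The labels give the replicate number as a batch, which pairs the livers by label. The check of this pairing found a median correlation of deviations of 0.0227 between same-numbered livers of different groups, over 0.1 in 56 of 198 pairs, and -0.0156 between differently numbered ones. Alternatives were the batch as a replicate block, centring each array on its median, leaving out genes with a mean under 7, the mean of a gene's rows, eBayes with trend and robust settings, the compared arrays alone, each array left out in turn and, chosen after seeing the data, both uneven HFC male LWT arrays left out. Arrays have no read depth, and the number of mice limits the precision. Promoters were searched with Python 3.11.15.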

Additional observations from a re-analysis of the deposited data

Results flagged for a closer look

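Each of these results stands here because the change from LWT to LKO differed between diets by the limma interaction test. From HFnC to HFC, the genotype change moved by 0.69 for Cyp2c68, 0.56 for Cyp2d10, 0.44 for Cyp2d11, 0.41 for Cyp2d34 and -0.75 for Cyp1b1. From LFnC to HFC, it moved by 1.36 for Cyp2d13, 1.13 for Cyp2d40, 1.05 for Cyp4f14, 0.95 for Cyp2d37-ps, 0.81 for Cyp4f15 and 0.75 for Cyp4b1. In the same comparison it moved by -1.49 for Cyp4f18, -1.12 for Cyp1b1 and -0.88 for Cyp4f16. With 1 array left out at a time, each of the 5 calls from HFnC to HFC was ended by at least 1 array. Of the 9 calls from LFnC to HFC, that of Cyp4f14 was ended by any of 6 arrays and the other 8 were kept. Leaving out the 2 uneven HFC male LWT arrays leaves replicate 3 alone in that group. The differences between HFnC and HFC then included 0.51 for Cyp2c68 and -0.54 for Cyp1b1. The difference between LFnC and HFC for Cyp4f14 was then 0.85. The duct marker level in HFC male LWT replicate 1 was 0.90, and its part in these differences was not tested.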

How the results depend on the processing

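The counts below are of members called, with the count of all genes called in brackets, and the cause of each shift was not tested. With each array centred on its median, 16 members were called in LFnC females (3204), 17 in LFnC males (5574) and 0 for fat in LWT (36). The same centring gave 5 for cholesterol in LWT (1157), 15 for genotype by cholesterol (2285) and 40 for HFC against LFnC (10645). With the compared arrays alone, 19 were called in LFnC males (2036) and 0 for fat in LKO (72). Those fits gave 1 for cholesterol in LWT (313), 0 for cholesterol in LKO (111) and 1 for genotype by cholesterol (713). Leaving out the 2 uneven HFC male LWT arrays leaves replicate 3 alone in that group, so no counts are given for it. Without dim genes 2 were called for cholesterol in LKO (265). The replicate block gave 2 over all diets (552), where Cyp4f15 was lost, and 2 for cholesterol in LKO (214). Among called members it ended no other call. It added calls near the threshold, on LFnC those of Cyp1a1 (adjusted p = 0.044) and Cyp2c67 (0.042).

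Leaving out 1 array at a time gave 19 to 26 on LFnC, 0 to 1 on HFnC, 0 to 14 on HFC, 0 to 12 over all diets, 7 to 13 in LFnC females and 2 to 8 in LFnC males. It gave 10 to 14 for sex in LWT, 11 to 18 for sex in LKO, 0 to 1 for fat in LWT, 2 to 13 for fat in LKO, 1 to 13 for cholesterol in LWT and 1 to 5 for cholesterol in LKO. The genotype by fat count was 0 to 5, that of genotype by cholesterol 0 to 19 and that of HFC against LFnC 20 to 34. The counts over all diets (12) and for cholesterol in LWT (1) and genotype by cholesterol (0) had those values without HFC male LWT replicate 1, and 14 on HFC, 13 for cholesterol in LWT and 19 came without replicate 3. Both genotype by sex counts stayed at 0. Counts over all genes are not given here for the fits without 1 array, so these ranges describe the members only.

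Differences near 0 that were not called changed sign. On LFnC, Cyp3a25 was -0.0044 with centred arrays, and leaving out 1 array gave -0.14 to 0.076 for Cyp2d9 and -0.061 to 0.0056 for Cyp2f2. For sex in LWT without the uneven arrays, Cyp1a2 was -0.086, Cyp1b1 0.12, Cyp2c29 -0.012 and Cyp2e1 -0.028, and Cyp2e1 was -0.0084 with centred arrays. Leaving out 1 array gave -0.015 to 0.059 for Cyp1a1, -0.081 to 0.10 for Cyp1b1, -0.025 to 0.021 for Cyp2e1 and -0.11 to 0.046 for Cyp2r1. Dim signals limit what the arrays can show for the 17 members under a mean of 7.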
